A study of Arabidopsis thaliana with 12 samples.

Results

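PRA1.B3 (AT5G05380) and PRA1.B6 (AT5G07110) of Arabidopsis thaliana encode prenylated RAB acceptors, and they are the only genes of this family with an array probe annotated to them alone. They are 2 of the 691 genes with such a probe on an array of 3439 probes, where probe 3982 stands for PRA1.B3 and probe 3977 for PRA1.B6. Total RNA came from wild-type plants of ecotype Columbia 0 and was hybridised to 12 single-channel arrays. For 6 arrays the plants were kept in water for 4 h, followed by 4 h in 25 mM ascorbate adjusted to pH 5.5. On the other 6, numbered 1 to 6 in the same way, 2 µM staurosporine, a broad inhibitor of protein kinases, took the place of water for 4 h before the same ascorbate treatment. Both groups thus received ascorbate, and plants without it were not analysed here. The labels name no organ or age and do not say whether a group's arrays stand for different plants. The p-values thus set a group difference only against the variation between arrays, and that variation may be technical. Both genes were chosen by name and with their measured staurosporine-to-water differences on these arrays known, so these differences are given as values, without a test.

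RAB GTPases are small switch proteins that direct vesicles between the compartments of the endomembrane system, and they attach to membranes through prenyl groups on their C-terminal end. In the cytosol a RAB is held by a GDP dissociation inhibitor, GDI. In mammals a PRA1 protein, PRA1/Yip3, was shown to displace GDI so that the RAB can enter its membrane. PRA1 proteins are small membrane proteins of the endoplasmic reticulum, Golgi apparatus and endosomes. In Arabidopsis they form a large family in lettered clades, of which B is one, and overproduced PRA1.B6 slows the export of cargo from the endoplasmic reticulum.

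The deposited intensities are relative and have no absolute unit. The array medians ran from 0.252 to 0.486 and between 10.3% and 15.2% of an array's probes were listed at 0, so quantile normalization was applied. Both genes were above 0 on all 12 arrays. Arrays 1 and 2, 3 and 4, and 5 and 6 of a group, called number pairs below, were more alike than others, with Spearman correlations of deposited values of 0.889 to 0.987 within them and 0.825 to 0.917 between other arrays of a group. Of the green tissue markers, PSAN, LHB1B2 and PRK had a probe of their own and were above 0 on all 12 arrays. PSAN (log2 change -1.73, limma adjusted p 9.13e-06) and LHB1B2 (-0.65, limma adjusted p 0.0177) fell in the same comparison, where 11.8% of all probes passed as lower and 22.9% in either direction, and PRK did not pass (-0.31, 0.349). With number pairs averaged neither fall passed (limma adjusted p 0.0591 for PSAN and 0.280 for LHB1B2). Probe 665, annotated to the green tissue marker RCA and to AT1G73110, was also above 0 on all 12 arrays. Its log2 change of 0.08 (limma adjusted p 0.737) turned sign in 3 of 25 other settings. This probe was added after its values were seen. Probe 1872 has the same annotation but was above 0 on only 2 arrays, so its change is not given. The part of these markers in the values of the PRA1 genes was not tested. The array holds RNA of whole samples, so fewer cells of a type and less RNA per cell cannot be told apart.

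PRA1.B6 was lower after staurosporine than after water on every array, on the deposited and on the normalized scale. Its normalized intensity after water was 0.511 at the lowest, 0.536 at the median and 0.720 at the highest of the 6 arrays. After staurosporine it was 0.234 at the lowest, 0.390 at the median and 0.414 at the highest. The highest staurosporine array thus lay below the lowest water array and the groups did not overlap, as was the case, with staurosporine lower, for 7.68% of all probes. The group mean was 0.586 ± 0.0945 (SD, n = 6) after water and 0.370 ± 0.0676 (SD, n = 6) after staurosporine. The fitted log2 change was -0.67 ± 0.18 (SE, 12 arrays), a level 1.59-fold lower. With the number pairs as 3 values a group, the SD was 0.105 after water and 0.050 after staurosporine.

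PRA1.B6 was even among the water arrays before normalization. Its deposited intensities were 0.560, 0.585, 0.551, 0.523, 0.551 and 0.566 in water replicates 1 to 6, a coefficient of variation of 3.67%. In staurosporine replicates 1 to 6 they were 0.460, 0.429, 0.203, 0.354, 0.507 and 0.484, a coefficient of variation of 27.8%. On this scale too the groups did not overlap, with staurosporine lower, as for 5.38% of all probes. The evenness after water was a feature of the deposited scale. Normalization raised water replicates 1 and 2, the arrays with the lowest medians, to 0.692 and 0.720, and the coefficient of variation after water became 16.1% against 18.3% after staurosporine. Staurosporine replicate 3 stood apart at 0.234, with the next array at 0.386. Without that array the log2 change was -0.55.

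PRA1.B3 was also lower after staurosporine on the normalized scale, but the groups overlapped. Its normalized intensity after water was 0.234 at the lowest, 0.251 at the median and 0.316 at the highest. After staurosporine it was 0.0998 at the lowest, 0.162 at the median and 0.254 at the highest. Of the 6 staurosporine arrays, 5 lay below every water array, and replicate 1 at 0.254 lay among them. The share of all probes with such a count was not taken. The mean was 0.263 ± 0.0325 (SD, n = 6) after water and 0.166 ± 0.0574 (SD, n = 6) after staurosporine. The fitted log2 change was -0.73 ± 0.22 (SE, 12 arrays), a level 1.66-fold lower. When arrays of a number pair were modelled as alike (a random block), its SE was 0.41 and that of PRA1.B6 0.27. The spread on the log2 scale was 0.17 (SD) among the water arrays and 0.51 among the staurosporine arrays. Among the 2584 probes above 0 on all arrays, 12.5% had a smaller spread after water and 68.8% a smaller spread after staurosporine.

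For PRA1.B3 the direction in single arrays depended on the normalization. Its deposited intensities were 0.190, 0.133, 0.240, 0.229, 0.283 and 0.309 in water replicates 1 to 6. In staurosporine replicates 1 to 6 they were 0.288, 0.174, 0.168, 0.0688, 0.197 and 0.255. The staurosporine array was the higher one at numbers 1 and 2 and the lower one at numbers 3 to 6, and only 1 staurosporine array lay below all water arrays. Without further normalization the log2 change was -0.34 ± 0.33 (SE), against a median of 0.19 over all probes on that scale. Relative to the median of all probes, PRA1.B3 was thus at -0.53 without further normalization and at -0.61 with quantile normalization, where that median was -0.12. PRA1.B6 was at -0.70 and -0.55 relative to the same medians. Among probes above 0 on all arrays the median after quantile normalization was -0.02. Relative to it PRA1.B3 was at -0.71 and PRA1.B6 at -0.65.

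**Figure D1:**
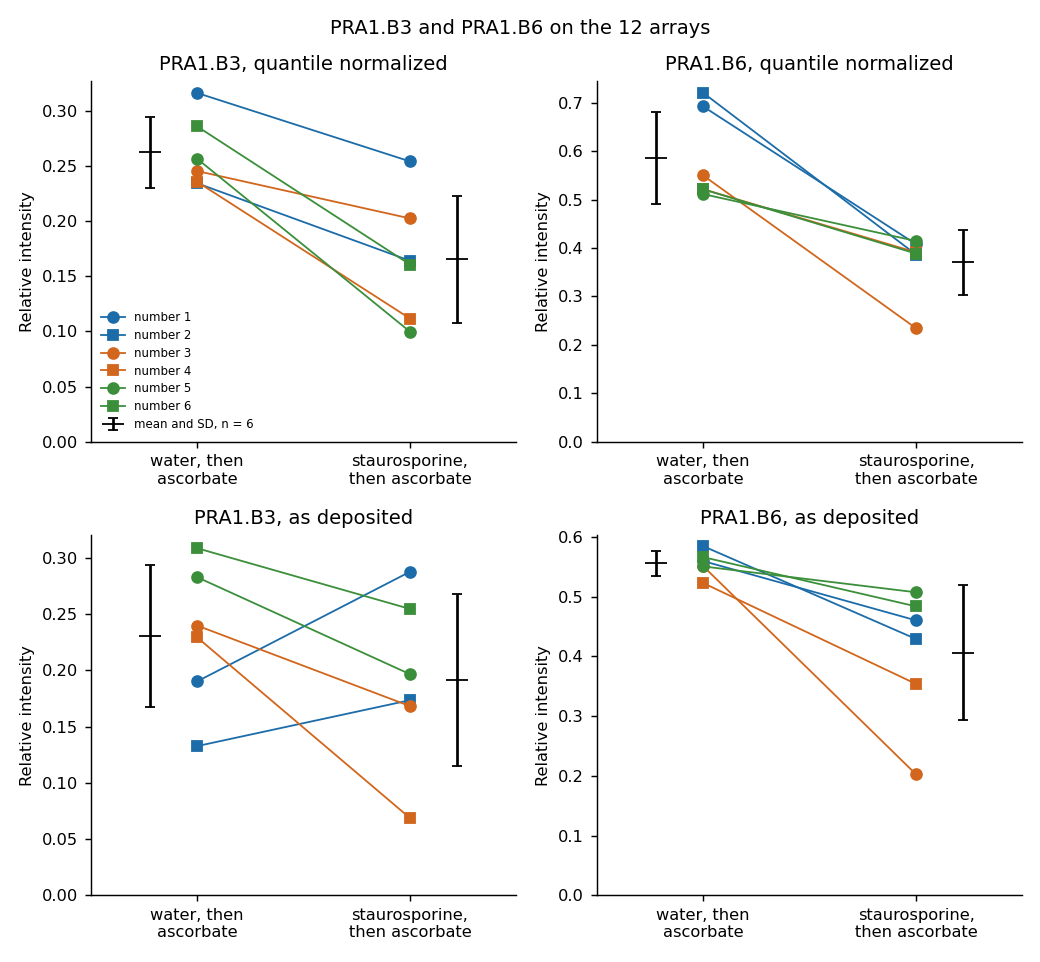
Relative intensity (linear axis from 0) of PRA1.B3 (left) and PRA1.B6 (right) on 6 water and 6 staurosporine arrays, quantile normalized (top) and as deposited (bottom). Lines join same-numbered arrays, colours mark number pairs, and bars give the mean and SD over 6 arrays. All lines fall for PRA1.B6 on both scales, while for PRA1.B3 the lines of numbers 1 and 2 rise on the deposited scale.

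The same-numbered array pairs showed how evenly each difference was carried. After quantile normalization PRA1.B6 had log2 differences, staurosporine minus water, of -0.76, -0.90, -1.23, -0.41, -0.30 and -0.42 at numbers 1 to 6. PRA1.B3 had log2 differences of -0.32, -0.51, -0.28, -1.08, -1.36 and -0.83 at numbers 1 to 6. Both genes were lower in 6 of 6 pairs, as were 15.2% of all probes. With arrays centred on their medians both were again lower in 6 of 6 pairs, against 19.1% of all probes. On the deposited scale PRA1.B6 was lower in 6 of 6 pairs, against 10.1% of all probes, and PRA1.B3 in 4 of 6. By number pair, on the normalized scale, the log2 difference of PRA1.B6 was -0.83, -0.82 and -0.36. That of PRA1.B3 was -0.41, -0.68 and -1.10. Which numbers carried the fall of PRA1.B3 depended on the scaling. After quantile normalization its largest fall was at number 5 (-1.36). With arrays centred on their medians it was at number 4 (-1.61), with number 5 at -0.74.

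**Figure D2:**
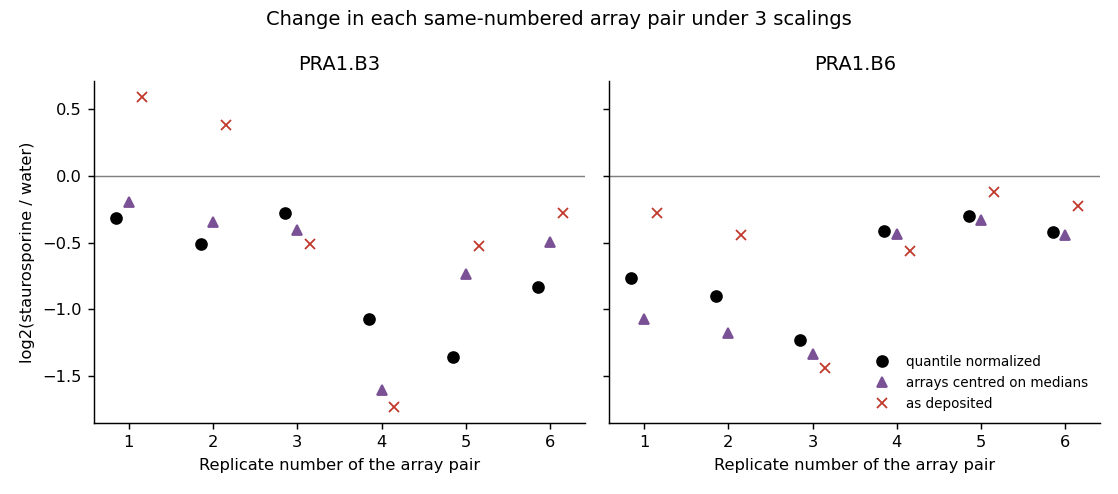
Log2 of staurosporine over water in each same-numbered array pair (1 to 6) for PRA1.B3 and PRA1.B6, after quantile normalization (circles), with arrays centred on their medians (triangles) and as deposited (crosses). All points lie below 0 except the deposited values of PRA1.B3 at numbers 1 and 2, at 0.60 and 0.39.

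PRA1.B3 was the dimmer and less repeatable measurement. Between 33.4% and 42.7% of the probes of a water array were dimmer than its probe, and between 19.2% and 35.8% of those of a staurosporine array. For the PRA1.B6 probe these shares were 60.7% to 73.7% after water and 33.4% to 52.4% after staurosporine. They describe brightness on the array and do not compare the amounts of the transcripts. The arrays of a number pair differed in PRA1.B3 by 0.63, 0.86 and 0.69 on the log2 scale after staurosporine, where the median probe above 0 on all arrays differed by 0.24, 0.28 and 0.22. These gaps are about as large as the group difference of PRA1.B3. After water the gaps of PRA1.B3 were 0.43, 0.06 and 0.16. For PRA1.B6 the gaps were between 0.03 and 0.09, except the 0.74 between staurosporine replicates 3 and 4.

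**Figure D3:**
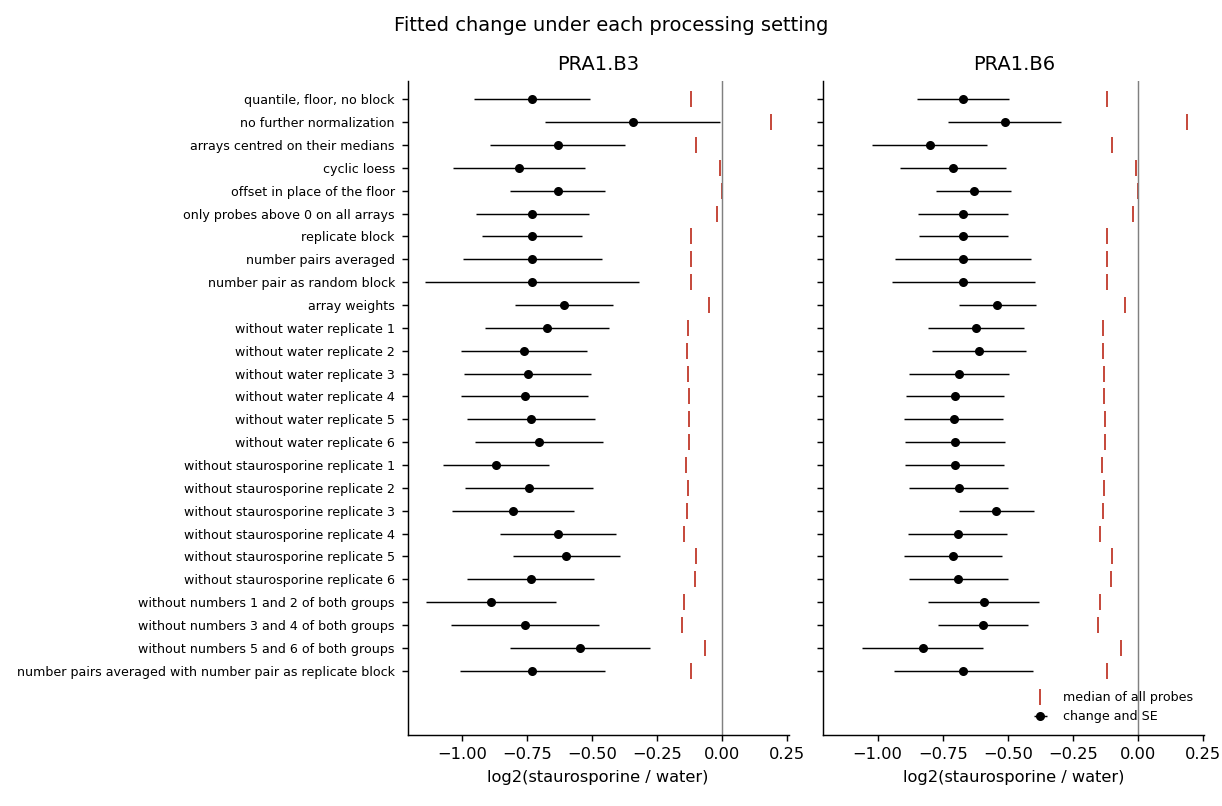
Fitted log2 change (horizontal axis, points) with its SE (bars) for PRA1.B3 and PRA1.B6 under the reported setting (top line) and 25 other settings, with the median change of all probes as a red mark. Every point of both genes lies below 0 and below the median of all probes. Settings with a filter on zeros, a replicate block, or averaged or random number pairs repeat the reported estimate.

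The other PRA1 genes on the array share probes, and the changes of these probes lay between -0.19 and 1.30 on the log2 scale, against -0.73 for PRA1.B3 and -0.67 for PRA1.B6. Of the 19 genes of the family, 8 are annotated to a probe, and 6 of these only to probes that carry several genes. A probe of this kind cannot be assigned to 1 gene, and near-identical family members could also bind a probe annotated to another. These shared probes were added after their values were seen, so their adjusted p-values below are descriptions and not independent tests. Probe 4324, annotated to PRA1.B1 and PRA1.B2, had the largest change of the family's probes. Its normalized intensity was 0.553 at the lowest, 1.16 at the median and 1.86 at the highest after water, and 1.15, 2.99 and 3.70 after staurosporine. Of the 6 staurosporine arrays, 5 lay above every water array, and replicate 5 at 1.15 lay among them. The share of all probes with such a count was not taken. Arrays of a number pair differed on average by 0.70 on the log2 scale, against 0.47 for PRA1.B3. Water replicates 5 and 6 were at 0.553 and 1.57, and staurosporine replicates 5 and 6 at 1.15 and 3.70.

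Probe 4324 rose by 1.30 ± 0.40 (SE) on the log2 scale (limma adjusted p 0.0359). It was higher in 6 of 6 same-numbered pairs, as were 15.1% of all probes. Over all probes 22.9% passed that test, 11.1% as higher and 11.8% as lower. The call ended in 15 of 25 other settings: without further normalization (limma adjusted p 0.0701), with arrays centred on their medians (0.227), with number pairs averaged (0.187), averaged and blocked (0.171) or as a random block (0.335), and without any of the 3 number pairs (0.0678, 0.162 and 0.0704). Single arrays whose removal ended it were water replicates 3, 4 and 5 and staurosporine replicates 1, 2, 3 and 6 (limma adjusted p 0.0603 to 0.0787).

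Probe 1736, annotated to PRA1.B5 and PRA1.B4, had a mean of 0.582 ± 0.136 (SD, n = 6) after water and 0.895 ± 0.200 after staurosporine. Its log2 change of 0.62 ± 0.21 (SE) did not pass, with a limma adjusted p of 0.0529, and was positive in 5 of 6 pairs. By number pair its log2 difference was 0.82, 1.05 and -0.02. It passed in 6 of 25 other settings. These were cyclic loess (limma adjusted p 0.0255), an offset in place of the floor (0.0408) and only probes above 0 on all arrays (0.0327). The rest were fits without water replicate 5 (0.0433), staurosporine replicate 6 (0.0146) or numbers 5 and 6 of both groups (0.0119). It did not pass with number pairs averaged (0.314), averaged and blocked (0.337) or as a random block (0.340). With arrays centred on their medians it did not pass either (0.161). Probe 1017, annotated to PRA1.G1 and PRA1.G2, had a log2 change of -0.05 ± 0.15 (SE), a limma adjusted p of 0.838 and no settled sign. Of these 3 probes without PRA1.B3 or PRA1.B6, 1 was called higher and none lower, a number too small to set against the share over all probes.

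Probe 3872 is annotated to PRA1.B3 together with PRA1.B1 and PRA1.B2. Its mean was 0.763 ± 0.0663 (SD, n = 6) after water and 0.676 ± 0.123 after staurosporine, with overlapping groups. Its log2 change of -0.19 ± 0.15 (SE), given without a test, lies between the -0.73 of PRA1.B3 on its own probe and the 1.30 of the probe for PRA1.B1 and PRA1.B2. It was lower after staurosporine in 5 of 6 pairs. Over the 12 arrays its Pearson r with PRA1.B3 was 0.62, and 0.48 as deviations from the group means. For PRA1.B3 and probe 4324 these values were -0.22 and 0.56.

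**Figure D4:**
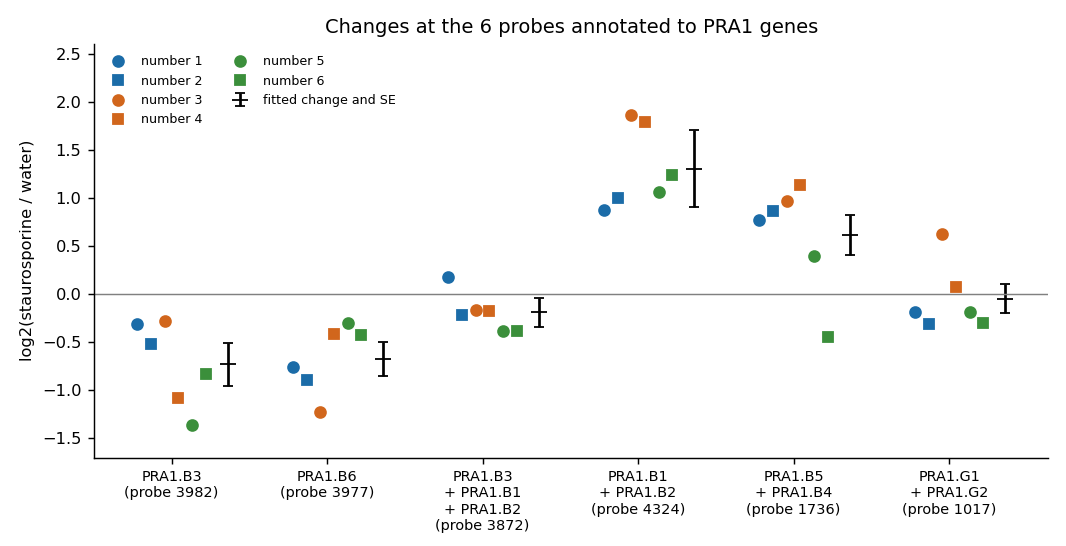
Log2 of staurosporine over water at the 6 probes annotated to PRA1 genes, for each same-numbered array pair (points) and as the fitted change with its SE (bars). The points of PRA1.B3 and PRA1.B6 all lie below 0, those of probe 4324 (PRA1.B1 and PRA1.B2) all above 0.

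Genes of RAB and vesicle transport pathways were nearly absent from the single-gene probes. None of the 57 RAB GTPase genes was annotated to a probe, alone or shared. Of 143 genes for RAB GTPases, RAB regulators and prenylation enzymes, SNAREs, and vesicle coats and ARF GTPases, only MON1 had a probe of its own. MON1 is a subunit of the MON1-CCZ1 exchange factor that activates RABG3 GTPases on late endosomes. Its mean was 0.999 ± 0.323 (SD, n = 6) after water and 1.18 ± 0.204 after staurosporine. Its log2 change of 0.28 ± 0.22 (SE) did not pass, with a limma adjusted p of 0.357, and its sign turned with arrays centred on their medians (-0.04). Probe 3818, annotated to SEC24C and SEC24B, cargo adaptors of the COPII coat that buds from the endoplasmic reticulum, had a log2 change of 0.51 ± 0.35 (SE) and a limma adjusted p of 0.311. It was higher after staurosporine in 6 of 6 pairs, as were 15.1% of all probes. This probe was added after its values were seen.

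The profiles of both PRA1 genes over the 12 arrays were set against the other 525 single-gene probes above 0 on all arrays. These are descriptions over arrays that share number pairs and the treatment contrast. The probes named were picked as the highest, which raises their correlations, those of deviations included. The contrast was left in for the pick, which favours probes that change in the same direction as the PRA1 gene. Most like PRA1.B3 were AT1G69910 (Pearson r 0.87), AT2G21720 (0.85) and AT3G60590 (0.84), with log2 changes of -0.85, -0.78 and -0.58. Taken as deviations from the group means, which removes the contrast, these correlations were 0.71, 0.66 and 0.73. Most like PRA1.B6 were AT3G22150 (Pearson r 0.89), AT1G30700 (0.87) and TPP2 (0.83), a large cytosolic peptidase that trims tripeptides from peptide ends. Their log2 changes were -0.95, -0.78 and -1.15, and the correlations of deviations were 0.79, 0.57 and 0.61. PRA1.B3 and PRA1.B6 had a Pearson r of 0.48 with each other over the 12 arrays and of -0.24 as deviations from the group means. The arrays of a group thus gave no positive relation between them.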

How the data were processed

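Relative intensities were deposited by the authors as 1 linear value per probe and array. The sources used here do not say how they were made (scanner, background correction, scaling, spot averaging). Groups and numbers came from sample titles. The intensities were quantile normalized; values under the 1st percentile of an array's positive values, zeros included, were set to that floor, and log2 was taken. Groups were compared over all 3439 probes in R 4.3.3 by limma 3.58.1 (eBayes after lmFit, without a block, 2-sided p adjusted by Benjamini-Hochberg, threshold 0.05), after the fit was tested on simulated data. The number of arrays limits the precision.

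Probes were named through the platform annotation, updated by gene identifier to TAIR10.1 symbols: 692 have 1 gene, 870 several and 1877 none listed, and 690 of the 692 matched. No genome positions are printed, since the labels name no build. The genes, the lists and the tests were chosen with earlier results of these data known. Genes named are PRA1.B3 and PRA1.B6, listed genes with their own probe, and the 3 single-gene probes most like each by Pearson r. The shared probes of PRA1 genes, SEC24 genes and RCA were added after their values were seen, so their adjusted p-values are descriptions.

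The deviations of same-numbered arrays from the means of their groups correlated at 0.297 to 0.545 over all probes. Among probes never at 0 they correlated at 0.158 to 0.273. Arrays of different numbers were not compared across groups, so whether the numbers pair single arrays was not tested. The other settings were other normalizations, an offset, a filter on zeros, array weights, a replicate block, averaged or random number pairs, and leaving out arrays or number pairs.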

Additional observations from a re-analysis of the deposited data

Results flagged for a closer look

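An array that lay far from the other 5 of its group was sought with Dixon's ratio in 20 groups, of which 2 had one; chance flags about 1 group in 20. The normalized intensity of PRA1.B6 in staurosporine replicate 3 was 0.234, and the nearest array was at 0.386. Probe 1017, annotated to PRA1.G1 and PRA1.G2, was at 0.568 in the same replicate, and the nearest array was at 0.426.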

How the results depend on the processing

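PRA1.B3 and PRA1.B6 had a negative log2 change in all 25 other settings, from -0.89 to -0.34 and from -0.83 to -0.51. In these equal-sized groups the filter on zeros, the replicate block and the averaged or random number pairs repeat the reported estimate. Their sign was thus fixed in advance. PRA1.B3 moved furthest from its reported -0.73 without further normalization (-0.34, with an SE of 0.33). A block on the replicate number treats same-numbered arrays as paired. With that block the SE was 0.19 for PRA1.B3 and 0.17 for PRA1.B6. It let 809 probes pass in place of 788 and changed no call of a probe given with a p. The SE was 0.41 and 0.27 with a random block for number pairs, and 0.27 and 0.26 with number pairs averaged. Leaving out an array or number pair gave -0.89 to -0.55 for PRA1.B3, -0.83 to -0.55 for PRA1.B6, -0.081 to 0.57 for MON1, -0.25 to 0.054 for probe 1017 and 410 to 748 probes passing. MON1 turned to -0.037 with arrays centred on their medians and to -0.081 without numbers 5 and 6. Probe 1017 turned to 0.22 without further normalization, to 0.0016 without staurosporine replicate 5, to 0.054 without numbers 1 and 2 and to 0.050 without numbers 5 and 6. Probe 665 turned to -0.0025 without further normalization and to -0.29 with centring, and gave -0.041 (without numbers 5 and 6) to 0.17 without an array or number pair. The cause of these turns was not tested. With number pairs averaged 9 probes passed, 2 when the pair was also a block (chosen after seeing the data), and 191 with the pair as a random block. Of the probes called, 48.4% were higher, 60.6% without further normalization and 34.4% with centring. With the pairs averaged, the limma adjusted p of PSAN was 0.0591 and that of LHB1B2 0.280. LHB1B2 also missed the threshold with the pair as a random block (0.0975) and without numbers 3 and 4 (0.0730) or 5 and 6 (0.138), and PRK passed without water replicate 3 (0.0477) or numbers 3 and 4 (0.0337). Averaging leaves 3 samples a group.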
